A study of Mus musculus with 10 samples.

Results

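The genes described here encode the pore-forming subunits of 2 families of ionotropic glutamate receptors, the AMPA receptors (Gria1, Gria2, Gria3 and Gria4) and the kainate receptors (Grik1, Grik2, Grik3, Grik4 and Grik5). They are 9 genes, chosen by symbol from the 40904 gene symbols of the mRNA tables. Each symbol stood in 1 row of each table, so no choice between rows was needed. The study profiled mRNA, small RNA and histone marks in primary cortical cultures made from embryos of ICR mice (an outbred strain) at embryonic day 14 (E14) and collected on day 11 in vitro (DIV11). Some cultures had received an adeno-associated virus (AAV) named AAV-Control and others AAV-Gata1, which delivers Gata1, a zinc finger transcription factor best known from red cell and platelet development. The promoter in the virus, the cells it reached and the number of embryos per culture were not stated in the labels. There was 1 mRNA library and 1 small RNA library for each virus, and whether both came from the same cultures was not stated. Without replicates no difference below could be tested. The 6 chromatin samples of the series were not analysed here.

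AMPA receptors carry most of the fast excitatory current at central synapses. They are tetramers, and a receptor that contains the Gria2 product in its edited form passes little calcium. Kainate receptors act on both sides of the synapse and tune transmitter release and excitability. The products of Grik1, Grik2 and Grik3 can form channels by themselves, while those of Grik4 and Grik5 need one of the former as a partner.

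Gata1 itself had a level of 0 FPKM with AAV-Control and 2.07 FPKM with AAV-Gata1, the order that the labels give. FPKM is the number of fragments of a gene scaled to the length of its transcript and to the mapped fragments of the library. Levels of different genes can therefore be set side by side, but only roughly, since transcript length is the only trait of a gene scaled for. No label or header states whether the values were also rescaled between the libraries. Such a step would move the ratios of all genes together, by an amount that matters for differences of a few percent. Markers of glia were present beside those of neurons. Where a pair of values is given below, the first is from the control library (AAV-Control) and the other from the Gata1 library (AAV-Gata1). Summed over 8 astrocyte markers the level was 2065 FPKM in both libraries, with Gfap at 887 and 897 FPKM, against 792 FPKM (control) and 757 FPKM (Gata1) over 10 pan-neuronal markers. Excitatory neuron markers (6 genes) summed to 151 and 148 FPKM and inhibitory neuron markers (8 genes) to 185 and 177 FPKM. Subunit mRNA in these tables comes from whole cultures. Fewer cells of a type and less RNA per cell therefore cannot be told apart.

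Each of the 9 subunit genes was lower with AAV-Gata1 than with AAV-Control, by small amounts. The share of all 13740 genes compared (mean of at least 1 FPKM) that were lower was 54.7%. Genes of 1 culture can vary together, so the shared direction describes these 2 libraries only. The summed level of the 9 genes was 168 FPKM with AAV-Control and 155 FPKM with AAV-Gata1, a difference of −8.12%. The value compared for each gene was the log2 ratio, log2((Gata1 + 1)/(control + 1)) of the FPKM, a scale that understates differences of genes with low values. Its median was −0.11 over the 9 genes and −0.013 over all genes compared. The subunit genes ranged from −0.28 (Grik4) to −0.040 (Grik1). The middle 80% of all genes lay between −0.17 and 0.14, and Gria1, Gria4, Grik2 and Grik4 lay below that range. None of the 9 was 2-fold apart, against 0.517% of all genes, and 1 of the 9, Grik4, was at least 1.2-fold lower on this scale, against 3.98% of all genes, a count of 1 gene from which nothing more is read.

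**Figure D1:**
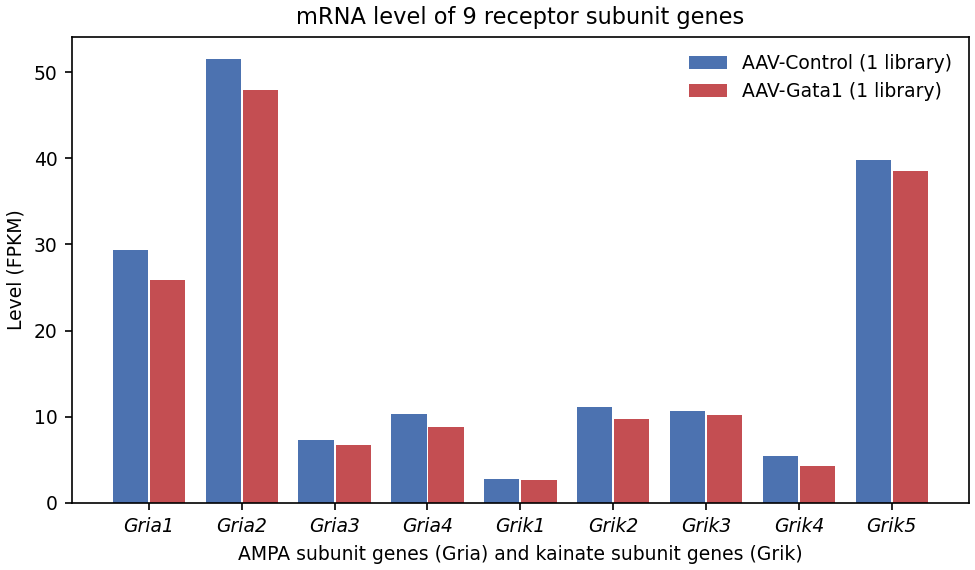
mRNA level in FPKM of the 4 AMPA subunit genes and the 5 kainate subunit genes, with 1 bar for the control library and 1 for the Gata1 library. Gria2 and Grik5 are the most abundant gene of their family in both libraries, and each Gata1 bar is shorter than the control bar beside it.

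Promoter windows from RefSeq (build GRCm38.p6, 250 bases before to 50 bases after the annotated start) were at hand for 6 of the 9 genes, Gria2, Gria4, Grik2, Grik3, Grik4 and Grik5. Since the delivered gene encodes a GATA factor and the subunit genes were lower together, the windows were searched on both strands for the GATA motif, that is, for the letters GATA preceded by A or T and followed by A or G. None of the 6 windows (0) held a match, against 29.8% of all 32851 windows. This says only that these letters are absent from these windows. The windows were rich in CG dinucleotides, with 10 to 50 of them against a median of 7 over all windows, of which 94.6% held at least 1. They held 59.7% to 82.0% G and C against a median of 52.7%. The letters of the GATA motif are mostly A and T, so the 29.8% is not a matched background for these 6 windows. The windows of the most abundant gene of each family (Gria2 and Grik5) and of the gene with the lowest log2 ratio of each family (Gria4 and Grik4) are shown 5′ to 3′ with CG in capitals. They hold 26, 10, 17 and 42 CG in that order.
Gria2 (chr3:80802786-80803085, minus strand): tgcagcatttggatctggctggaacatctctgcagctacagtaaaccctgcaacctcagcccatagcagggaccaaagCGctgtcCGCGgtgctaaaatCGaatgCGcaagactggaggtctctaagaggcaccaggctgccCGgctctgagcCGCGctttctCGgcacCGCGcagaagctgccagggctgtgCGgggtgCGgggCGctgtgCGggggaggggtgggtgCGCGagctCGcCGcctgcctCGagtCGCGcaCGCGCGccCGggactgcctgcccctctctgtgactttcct
Grik5 (chr7:25072320-25072619, minus strand): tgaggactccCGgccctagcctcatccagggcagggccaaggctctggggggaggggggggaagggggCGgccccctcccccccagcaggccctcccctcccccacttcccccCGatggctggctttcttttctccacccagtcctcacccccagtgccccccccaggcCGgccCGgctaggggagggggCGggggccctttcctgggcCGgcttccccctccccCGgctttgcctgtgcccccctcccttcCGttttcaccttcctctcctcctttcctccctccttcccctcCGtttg
Gria4 (chr9:4796185-4796484, minus strand): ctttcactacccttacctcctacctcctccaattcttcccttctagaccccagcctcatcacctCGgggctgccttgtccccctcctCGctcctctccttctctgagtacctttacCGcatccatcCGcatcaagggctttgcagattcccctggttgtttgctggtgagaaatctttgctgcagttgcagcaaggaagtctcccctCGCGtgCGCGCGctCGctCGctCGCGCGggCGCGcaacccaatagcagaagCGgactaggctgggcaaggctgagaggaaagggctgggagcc
Grik4 (chr9:42944322-42944621, minus strand): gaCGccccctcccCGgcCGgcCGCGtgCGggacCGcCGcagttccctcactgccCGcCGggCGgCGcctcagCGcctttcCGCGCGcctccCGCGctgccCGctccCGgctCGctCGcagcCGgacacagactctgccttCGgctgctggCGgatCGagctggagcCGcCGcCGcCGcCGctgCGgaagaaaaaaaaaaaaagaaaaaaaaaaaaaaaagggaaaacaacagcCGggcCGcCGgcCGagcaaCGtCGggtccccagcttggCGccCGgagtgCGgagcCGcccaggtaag
The window of Grik5 has the fewest CG of the 6, and that of Grik3, not shown, the most.

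Among the AMPA subunit genes, Gria2 was the most abundant of all 9 genes in both libraries. Its product is the subunit whose RNA is edited at the pore and that sets calcium permeability. It stood at 51.5 FPKM with AAV-Control and 47.9 FPKM with AAV-Gata1 (log2 ratio −0.10). Its mean level lay at percentile 86.2 of the genes compared. Gria1, whose product is a main target of phosphorylation during synaptic plasticity, stood at 29.4 FPKM with AAV-Control and 25.9 FPKM with AAV-Gata1 (log2 ratio −0.17). In FPKM these were differences of −7.02% for Gria2 and −11.7% for Gria1.

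Gria4, which is expressed early in cortical development and later in many interneurons, stood at 10.3 and 8.75 FPKM. Its log2 ratio, −0.22, was the lowest of the AMPA subunit genes and lay at percentile 6.12 of all genes compared. Gria3, an X-linked gene whose product often pairs with that of Gria2, stood at 7.30 and 6.70 FPKM (log2 ratio −0.11). It was the least abundant AMPA subunit gene in both libraries. The median log2 ratio of the 4 AMPA subunit genes was −0.14, and their summed level was 98.5 FPKM with AAV-Control and 89.3 FPKM with AAV-Gata1.

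Among the kainate subunit genes, Grik5 was the most abundant. Its product binds kainate with high affinity and forms channels only with other kainate subunits. The gene was second in level among the 9. It stood at 39.8 FPKM with AAV-Control and 38.5 FPKM with AAV-Gata1 (log2 ratio −0.046), a difference of −3.19% and the smallest in percent of the 9. Its gene overlaps Zfp574 in the RefSeq annotation. Zfp574 stood at 10.7 and 9.58 FPKM, and whether fragments were assigned by strand was not stated in the labels or headers, so some fragments may be shared between them. None of the genes that overlap Gria4, Grik1, Grik2, Grik3 or Grik4 in that annotation matched a row of the tables by symbol, and no annotated gene overlaps Gria1, Gria2 or Gria3.

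Grik4, the other high-affinity subunit gene, showed the largest relative difference of the 9. It stood at 5.46 FPKM with AAV-Control and 4.32 FPKM with AAV-Gata1, a difference of −20.8% and a log2 ratio of −0.28, at percentile 3.52 of all genes compared. The level of Grik5 was 7.29 times that of Grik4 with AAV-Control and 8.91 times with AAV-Gata1. Both high-affinity genes were lower, at opposite ends of the range of percent differences of the 9 genes.

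Grik2, whose product is the main channel-forming kainate subunit of the forebrain and is also edited at the pore, stood at 11.2 FPKM with AAV-Control and 9.77 FPKM with AAV-Gata1 (log2 ratio −0.18). Grik3, whose product forms receptors of low sensitivity to glutamate, stood at 10.7 and 10.2 FPKM (log2 ratio −0.069). These neighbours in level stood in opposite order in the libraries, Grik2 being 1.04 times Grik3 with AAV-Control and 0.961 times Grik3 with AAV-Gata1. With 1 library each the spread is unknown, so their order is not established in either condition. Grik1, which is found in interneurons among other cells, was the least abundant of the 9, at 2.78 and 2.68 FPKM (log2 ratio −0.040). The 5 kainate subunit genes had a median log2 ratio of −0.069 and a summed level of 69.9 FPKM with AAV-Control and 65.5 FPKM with AAV-Gata1.

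**Figure D2:**
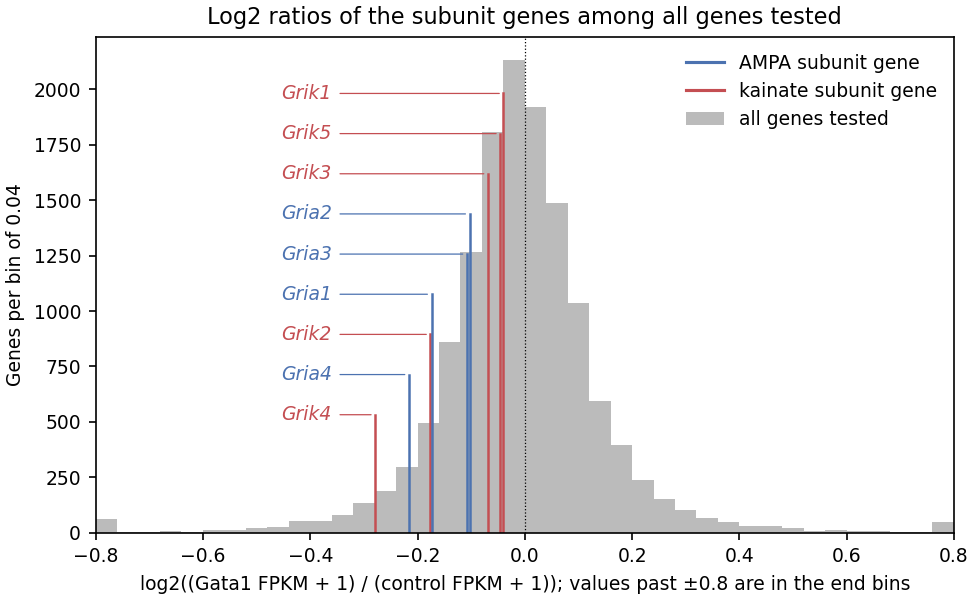
Histogram of log2((Gata1 FPKM + 1)/(control FPKM + 1)) over the 13740 genes compared, with genes per bin on the vertical axis and a line for each subunit gene (line height carries no value). All 9 lines lie left of 0, from −0.28 for Grik4 to −0.040 for Grik1, within the body of the distribution or its lower flank.

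The order of the 9 levels was otherwise the same in both libraries, with Gria2, Grik5 and Gria1 at the top and Gria4, Gria3, Grik4 and Grik1, in that order, at the bottom. The make-up of each family was also close. Gria2 made up 52.3% of the summed AMPA subunit level with AAV-Control and 53.7% with AAV-Gata1, Gria1 29.8% and 29.0%, Gria4 10.5% and 9.80%, and Gria3 7.41% and 7.50%. Gria2 stood at 1.75 times the level of Gria1 with AAV-Control and at 1.85 times with AAV-Gata1. In the kainate family Grik5 made up 56.9% and 58.9%, Grik2 15.97% and 14.9%, Grik3 15.3% and 15.5%, Grik4 7.81% and 6.60%, and Grik1 3.98% and 4.10%. The largest move of a share was that of Grik5, by 1.93 percentage points. AMPA subunit genes made up 58.5% of the summed level of all 9 with AAV-Control and 57.7% with AAV-Gata1.

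**Figure D3:**
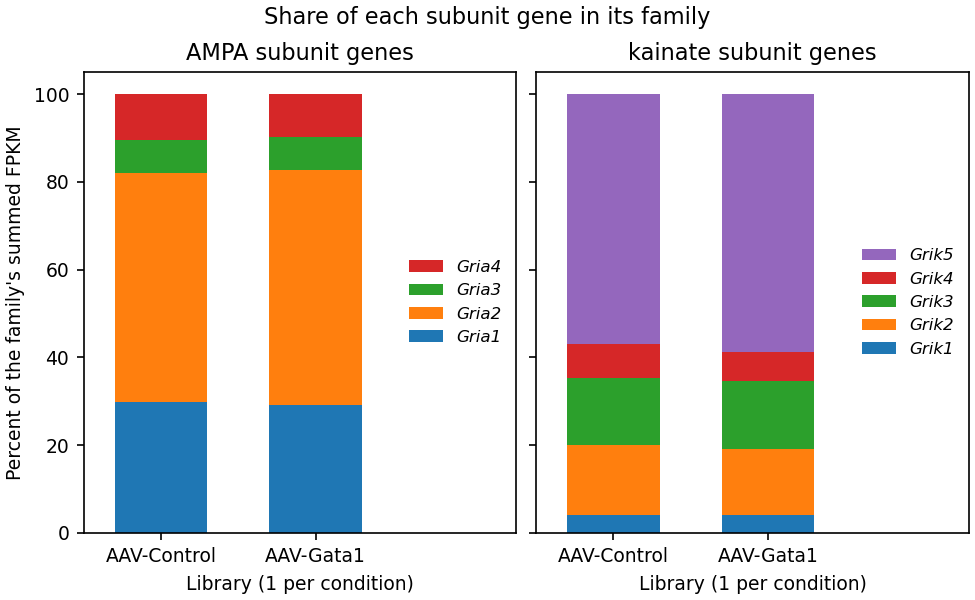
Each subunit gene as a percent of the summed FPKM of its family, AMPA on the left and kainate on the right, with 1 stacked bar per library. The bars of the control and the Gata1 library are nearly alike, and Gria2 (52.3% and 53.7%) and Grik5 (56.9% and 58.9%) fill more of their bars than any other gene.

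Markers of several cell types differed beside the subunit genes. Of the 10 pan-neuronal markers 9 were lower, against 54.7% of all genes compared, and the median log2 ratio was −0.083. Their summed level differed by −4.39%. Set against that neuronal sum, the summed AMPA subunit level was 12.4% of it with AAV-Control and 11.8% with AAV-Gata1, and the kainate subunit level 8.83% and 8.64%. These shares depend on Map2 (240 and 236 FPKM) and Stmn2 (252 and 242 FPKM), which make up most of the neuronal sum. Syt1, Eno2 and Elavl3 had the lowest log2 ratios of these 10 markers, −0.14, −0.15 and −0.14, beside the AMPA median of −0.14. The other pan-neuronal markers lay above that median, from −0.11 (Rbfox3) to 0.015 (Elavl4). On the same scale, the inhibitory neuron markers had their median at −0.12, with 4 of the 7 compared below 0. The median of the excitatory neuron markers was −0.071, with 5 of 6 below 0. That of the 9 subunit genes, −0.11, lay between these values. Oligodendrocyte lineage markers, some of whose cells express AMPA and kainate receptors, summed to 245 and 230 FPKM, with 6 of 8 lower. Of the 10 microglia markers 8 reached a mean of 1 FPKM. All 8 were higher, against 6222 of the 13740 genes compared. The sum over the microglia list was 295 FPKM with AAV-Control and 347 FPKM with AAV-Gata1. Pericyte and fibroblast markers summed to 91.2 and 75.7 FPKM and endothelial markers to 2.83 and 2.75 FPKM. The difference of the pericyte and fibroblast sum was carried by Acta2, at 76.4 and 60.7 FPKM. Pdgfrb stood at 13.6 FPKM in both libraries (log2 ratio −0.0030), and the other markers of that list did not reach a mean of 1 FPKM. Progenitor markers summed to 235 and 251 FPKM, a sum carried by Sox2 (139 and 153 FPKM) and Pax6 (44.2 and 48.1 FPKM), while the other 4 of the 6 were lower and the median log2 ratio was −0.016. The endothelial markers Cldn5 (0 and 0.0503 FPKM) and Cdh5 (0.00861 and 0 FPKM) were at or near 0, and the microglia markers Tmem119 (0.0738 and 0.154 FPKM) and P2ry12 (0.178 and 0.117 FPKM) were low. The part of these cell types in the lower subunit levels was not tested.

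AMPA receptors are built with auxiliary subunits that set their gating and delivery to synapses. Of 13 such genes 12 were compared, and 11 were lower with AAV-Gata1, against 54.7% of all genes compared. Their median log2 ratio was −0.10. Cnih3, a cornichon that slows channel closing, stood at 13.7 and 10.5 FPKM (log2 ratio −0.35). It was the 1 gene of the 12 at least 1.2-fold lower, against 3.98% of all genes compared. The related Cnih2 stood at 70.9 and 61.3 FPKM (log2 ratio −0.21). Cacng2, which encodes stargazin, the founding member of the transmembrane AMPA receptor regulatory proteins, stood at 3.75 and 3.15 FPKM. Cacng7, of the same family and the most abundant gene of the list, stood at 97.5 and 89.4 FPKM. Of the Shisa genes, Shisa7 stood at 13.9 and 12.2 FPKM. Shisa6, whose product keeps AMPA receptors from desensitizing, was the exception of the list. It stood higher, at 4.11 FPKM with AAV-Control and 5.50 FPKM with AAV-Gata1 (log2 ratio 0.35). Shisa6 was the 1 gene of the 12 at least 1.2-fold higher, against 452 of the 13740 genes compared.

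Kainate receptors have the auxiliary subunits Neto1 and Neto2, which slow their desensitization. Neto1 stood at 6.56 and 6.44 FPKM (log2 ratio −0.024) and Neto2 at 26.9 and 28.0 FPKM (log2 ratio 0.057). Both lists of auxiliary genes thus held values on each side of 0.

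Factors that assemble AMPA receptors or escort them to the surface were lower in 5 of 6 cases, against 54.7% of all genes. Their median log2 ratio was −0.063. The assembly factor Frrs1l stood at 9.84 and 9.63 FPKM, its partner Cpt1c at 25.3 and 24.2 FPKM, Porcn at 21.7 and 20.2 FPKM, Prrt1 at 9.99 and 9.52 FPKM and the secreted Olfm1 at 106 and 99.9 FPKM. The hydrolase gene Abhd6, whose product holds back surface delivery of AMPA receptors, stood higher, at 16.8 and 17.5 FPKM.

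Of 20 genes of receptor trafficking and clustering 14 were lower, against 54.7% of all genes compared. The median log2 ratio of the list was −0.069. Scaffold genes of the postsynaptic density were among the lower ones, with Dlg4, which encodes PSD-95, at 65.9 and 58.9 FPKM and Dlg2 at 25.97 and 22.4 FPKM. Gripap1, which acts in the recycling of AMPA receptors, stood at 22.8 and 19.9 FPKM, and the pentraxin receptor gene Nptxr at 38.4 and 34.1 FPKM. The members C1ql2 and Syndig1 stood higher by similar or larger amounts. The product of C1ql2 gathers kainate receptors at mossy fibre synapses, and its gene stood at 1.91 and 2.50 FPKM (log2 ratio 0.27). Syndig1, whose product binds AMPA receptors at developing synapses, stood at 1.85 and 2.18 FPKM. Both had low levels in both libraries.

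RNA editing by ADAR enzymes recodes the pore of the Gria2, Grik1 and Grik2 products. Adarb1, which encodes ADAR2, the enzyme that edits that site in Gria2, stood at 8.94 FPKM with AAV-Control and 7.92 FPKM with AAV-Gata1 (log2 ratio −0.16). Adarb2, which encodes a brain enzyme without known editing activity, stood at 4.91 and 4.30 FPKM, and Adar at 23.3 FPKM in both. Gene levels do not show which share of the receptor RNA was edited.

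**Figure D4:**
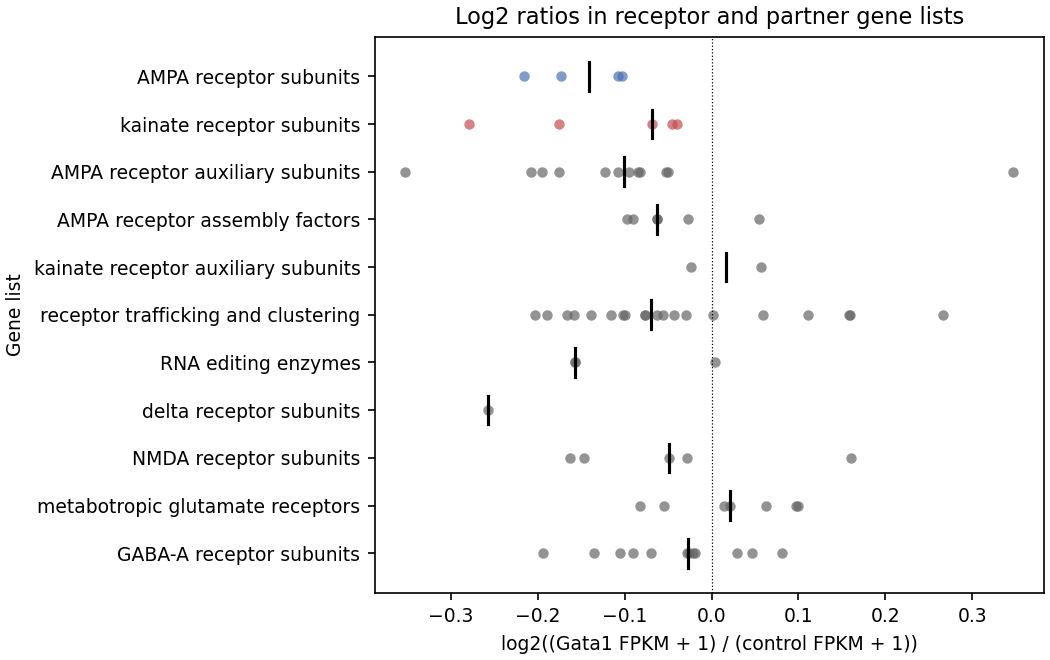
Log2((Gata1 FPKM + 1)/(control FPKM + 1)) of each gene with a mean of at least 1 FPKM, by receptor or partner list, with a point per gene and a black bar at the median of the list. The AMPA and kainate subunit genes (coloured points) and the single delta receptor gene all lie left of 0, while the other lists drawn (no marker lists) have points on both sides.

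The other glutamate and GABA receptor families were less even in direction, beside 54.7% of all genes lower. Of 5 NMDA subunit genes compared 4 were lower and the median log2 ratio was −0.049. The 7 NMDA subunit genes listed summed to 39.9 and 36.3 FPKM. That is a difference of −8.99%, against −8.12% for the 9 AMPA and kainate genes, −0.878% for metabotropic and −4.28% for GABA-A receptor genes. The obligatory subunit gene Grin1 stood at 19.9 and 17.6 FPKM (log2 ratio −0.16). Grin2b stood at 12.6 and 11.3 FPKM (log2 ratio −0.15). Both ratios were close to the AMPA median of −0.14. Grin2c stood at 1.88 and 1.79 FPKM, while Grin2d stood higher, at 1.09 and 1.33 FPKM. Of 7 metabotropic glutamate receptor genes 2 were lower, with a median of 0.022, and Grm5 stood at 14.5 and 13.6 FPKM, Grm3 at 2.55 and 2.80 FPKM and Grm8 at 1.04 and 1.12 FPKM. Of 12 GABA-A subunit genes 9 were lower, with a median of −0.028, and Gabra2 stood at 26.3 and 23.8 FPKM and Gabrg1 at 6.27 and 5.76 FPKM. The delta subunit gene Grid1 stood at 8.04 and 6.56 FPKM (log2 ratio −0.26), close to Grik4 in ratio. With 1 library per condition, no difference between these families and the AMPA and kainate genes could be tested.

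MicroRNAs that earlier work linked to Gria1 or Gria2 were read from the small RNA libraries of the same conditions. They are miR-137-3p, miR-92a-3p and miR-501-3p for Gria1, miR-181a-5p, miR-186-5p, miR-218-5p and miR-223-3p for Gria2, and miR-124-3p for AMPA receptors in general. Of these 8, 7 matched a mature sequence in RefSeq (GRCm38.p6), shown 5′ to 3′ with the seed, bases 2 to 8, which pairs with target mRNA, in capitals.
miR-137-3p: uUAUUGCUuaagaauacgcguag
miR-92a-3p: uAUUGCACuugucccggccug
miR-501-3p: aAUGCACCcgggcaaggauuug
miR-181a-5p: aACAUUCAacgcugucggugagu
miR-186-5p: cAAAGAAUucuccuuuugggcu
miR-218-5p: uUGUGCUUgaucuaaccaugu
miR-223-3p: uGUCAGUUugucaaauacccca
The 7 seeds all differ, so none of these microRNAs shares a seed with another.

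Levels of these microRNAs are in CPM (reads scaled to a common total), with the ratio of the Gata1 to the control library and its exact 95% interval, which covers counting error alone and compares 2 libraries, not the conditions. miR-181a-5p, the most abundant, stood at 4238 and 4910 CPM (66254 and 62088 reads), a ratio of 1.16 (1.15 to 1.17). miR-124-3p, which is enriched in neurons, stood at 2667 and 3116 CPM (ratio 1.17, 1.15 to 1.18), and miR-186-5p at 205 and 222 CPM (ratio 1.08, 1.03 to 1.14). For these 3 of 8 the interval lay above 1, against 29.8% of the 563 microRNAs with at least 20 reads.

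miR-137-3p stood at 102 and 82.6 CPM (1599 and 1044 reads), a ratio of 0.807 (0.746 to 0.873) and the lowest of the 8. miR-92a-3p stood at 2483 and 2411 CPM (ratio 0.971, 0.957 to 0.986) and miR-218-5p at 358 and 334 CPM (ratio 0.931, 0.895 to 0.969). For these 3 of 8 the interval lay below 1, against 19.4% of all. Whether an interval leaves out 1 depends on the number of reads. The 29.8% and 19.4% are over microRNAs with 20 reads or more, so they are not matched in depth to the microRNAs named here. The intervals of miR-501-3p (372 and 360 CPM, ratio 0.967, 0.930 to 1.01) and miR-223-3p (14 and 13 reads, ratio 1.14, 0.497 to 2.63) held 1. PCR copies of 1 molecule count as separate reads, so these intervals are too narrow as a guide to the spread between cultures. The median ratio of all microRNAs compared was 1.04 and was not divided out. Relative to it, the interval of miR-186-5p would hold the median, and that of miR-501-3p would lie below it. No relation between these microRNAs and the subunit levels was tested.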

How the data were processed

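The mRNA values were deposited by the authors as FPKM, per the file headers, and the small RNA values as CPM, named normalized counts in the headers, with an equal sum in each library. The submitters' processing notes name the builds mm9 and mm10 and, among other tools, edgeR 3.10.2, HTSeq 0.6.1p1, Bowtie 1.1.2, Cuffdiff 2.1.1, Cufflinks 2.1.1 and TopHat2 2.1.1, without a role. Of 40993 mRNA rows, 6 had no symbol (0.0122% and 0.0113% of the summed FPKM of 476398 and 476848) and were not used. Where a symbol or mature microRNA had several rows, the highest was kept. The mRNA depth is unknown, since of 1283 rows under 0.1 FPKM no more than 43 shared a log2 ratio within 0.02. Small RNA values were whole multiples of 1 read (100% within 0.0055 CPM), giving 15632553 and 12644419 reads over all rows, which repeat reads across precursors. Values were computed with Python 3.11.15, pandas 2.3.3 and SciPy 1.17.1 (exact conditional binomial intervals). The counting of genes past 1.2-fold was tested on simulated data with larger differences put in. That checks the counting only and does not bear on genes near 1.2-fold or on the spread between libraries.

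The subunit genes, gene lists, microRNAs, motifs and thresholds were chosen with earlier results of these data known. The text names all subunit genes, all genes of lists of 6 or fewer, up to 6 genes of each partner list and up to 4 of each related receptor family by size of log2 ratio, apart from genes named for low levels. Some genes that this rule takes are not reported here. Epb41l1 was matched through a RefSeq synonym. Shisa8 and Tubb3, and the proteins of the subunits, were not analysed here. The alternatives were other pseudocounts (0.1 or none), other minimum means (none or 5 FPKM), sums over rows of a symbol, and centring on the median of all genes.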

Additional observations from a re-analysis of the deposited data

How the results depend on the processing

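All 9 subunit genes were below 0 in log2 ratio under every one of the 6 alternatives that kept them, 52 values in all. Most of these signs were fixed in advance. A pseudocount, a minimum mean or a sum over 1 row cannot change which library is lower. Only centring on the median of all genes could have changed a sign, and all 9 stayed below 0 with it. The largest move was that of Grik4, from −0.28 to −0.34 without a pseudocount. The median of the subunit genes was −0.12 with a pseudocount of 0.1 and −0.12 with none (−0.122 and −0.123), and −0.095 with ratios centred on the median of all genes. A minimum mean of 5 FPKM leaves out Grik1 and Grik4, so that 7 genes were lower and 0 were at least 1.2-fold lower, because Grik4 is no longer compared. The background moved more. Genes at least 1.2-fold lower numbered 547 as reported, 835 without a pseudocount, 1032 with no minimum mean and 240 at a minimum of 5 FPKM. The share of all genes that were lower was 54.7% as reported and 55.4% at a minimum of 5 FPKM. With no minimum mean it was 27.8%, and the median log2 ratio of all genes was then 0. Sums over rows of a symbol left the subunit values as they were. No paired analysis was possible because each condition had 1 library. With 1 library per condition and unknown mRNA depth, differences of this size cannot be separated from variation between cultures or library preparations. The exact comparison of recovered reads, chosen after seeing the data, is the one given above for microRNAs and is not among the 6 alternatives. By it, 168 of 563 microRNAs had an interval above 1, and 109 had one below 1.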

Other observations

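Some receptor genes did not reach a mean of 1 FPKM and so were in no comparison. The following were chosen after their values were seen. Grin2a, the NMDA subunit gene that rises after birth in cortex, stood at 0.578 and 0.484 FPKM, and Grin3b at 0.186 and 0.190 FPKM. The metabotropic receptor gene Grm6, known from retinal bipolar cells, and the GABA-A subunit gene Gabra6, known from cerebellar granule cells, were listed at 0 FPKM in both libraries, and Gabre at 0.0293 and 0 FPKM. The AMPA and kainate subunit genes all exceeded 2 FPKM in both libraries, and Grik1 was the lowest at 2.68 FPKM. So did other genes of these receptor families, such as Grin1 (19.9 and 17.6 FPKM) and Grm5 (14.5 and 13.6 FPKM). Others, such as Grin2d (1.09 and 1.33 FPKM), did not. The genes named above were picked for low levels and do not stand for their families.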
